A study of Mus musculus with 9 samples.

Results

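The ErbB family of growth factor receptors and its ligands, 10 genes in all, was followed across 3 sorted populations of the mouse main olfactory epithelium at an age of 4 weeks. The genes were chosen by name, as the 4 receptors (Egfr, Erbb2, Erbb3 and Erbb4) and 6 of their ligands (Areg, Ereg, Hbegf, Tgfa, Btc and Nrg1). All 10 were found, each as 1 row, among the 21909 gene symbols of the mRNA tables. Horizontal basal cells (HBC), the reserve stem cells that lie on the basal lamina, were sorted with an antibody to CD54, the protein of Icam1. Globose basal cells (GBC) were sorted by enhanced green fluorescent protein (EGFP) under Neurog1, a proneural gene. For mature olfactory sensory neurons (mOSN), the marker was EGFP expressed from the Omp gene, and a reporter protein can outlast the activity of the gene that drives it. The labels name no other allele or treatment, nor the strain or the number of animals in a sort. Each population was 1 library of polyadenylated RNA, so differences stand without replicates and without p-values. ScriptSeq was the kit for HBC, and an Illumina mRNA kit served for GBC and for mOSN, so population and kit cannot be told apart in any comparison with HBC. The 3 samples of 5-hydroxymethylcytosine and the 3 of 5-methylcytosine were not analysed here.

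ErbB receptors are membrane tyrosine kinases that signal as pairs. Amphiregulin (Areg), epiregulin (Ereg), heparin-binding EGF (Hbegf), transforming growth factor alpha (Tgfa) and betacellulin (Btc) bind the EGF receptor, and epiregulin, heparin-binding EGF and betacellulin also bind ErbB4. Neuregulin 1 (Nrg1) binds ErbB3 and ErbB4, while ErbB2 has no known soluble ligand and serves as a partner of the others. Most ligands are made as membrane precursors and released by ADAM proteases. In the olfactory epithelium, the EGF receptor is known from basal cells, for which EGF and transforming growth factor alpha are growth factors in culture.

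The promoter of Hbegf was not used here, and those of Erbb3, Ereg and Nrg1 were not in the source. Promoter sequences of the other 6 members, Egfr, Erbb2, Erbb4, Areg, Tgfa and Btc, were taken from RefSeq (build GRCm38.p6). These ran from 250 bases before to 50 bases after the start. They were searched on both strands for the cAMP response element TGACGTCA, the AP-1 site TGANTCA, the GC box GGGCGG, the TATA box TATAAA, the EGR site GCGTGGGCG and the serum response core. The motifs were chosen with the values and sequences known. Areg and Egfr, a ligand and its receptor with their highest level in HBC, are printed side by side because the motifs found in them differ, with matched letters in capitals. Areg is chr5:91139349-91139648 and Egfr is chr11:16751953-16752252, both on the plus strand.
Areg: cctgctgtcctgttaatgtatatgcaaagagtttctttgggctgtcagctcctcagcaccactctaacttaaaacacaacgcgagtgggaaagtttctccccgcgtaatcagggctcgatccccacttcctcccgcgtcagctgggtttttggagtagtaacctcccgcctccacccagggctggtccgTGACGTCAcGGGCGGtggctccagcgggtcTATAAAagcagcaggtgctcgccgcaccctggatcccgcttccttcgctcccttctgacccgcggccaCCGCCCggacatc
Egfr: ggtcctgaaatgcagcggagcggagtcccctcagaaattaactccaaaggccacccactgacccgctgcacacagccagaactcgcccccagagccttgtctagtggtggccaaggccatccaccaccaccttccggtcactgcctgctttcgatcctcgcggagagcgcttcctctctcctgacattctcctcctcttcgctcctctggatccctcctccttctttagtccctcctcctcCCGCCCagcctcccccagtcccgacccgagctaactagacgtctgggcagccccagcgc
Areg held the cAMP response element 61 bases before its start, a TATA box 31 bases before it and 2 GC boxes. Egfr held 1 GC box, 9 bases before its start, and no TATA box. Tgfa held 2 GC boxes, and Erbb2, Erbb4 and Btc held none of the motifs searched. Across 32851 promoters of the same length, 1.79% held the cAMP response element, 13.6% the TATA box and 35.7% the GC box. The AP-1 site (7.81% of promoters), the EGR site (0.612%) and the serum response core (0.0639%) were found in none of the 6. The EGR site and the serum response core are so rare that their absence from 6 promoters says little. A match is a run of letters and was not tested as a binding site.

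Levels are given as FPKM, a fragment count corrected for the length of the transcript and the size of the library, as the authors deposited them, with the lower and upper bound of the deposited interval. These bounds come from 1 library each and hold no error between replicates. The fragment count implied by them was whole for every member but Egfr (3044.8 in HBC and 8.3 in GBC). For Egfr they may hold more than counting error, and its implied fragments are approximate. Over all 21909 symbols, the bounds did not overlap for 69.0% between GBC and HBC, for 53.8% between mOSN and GBC and for 68.6% between mOSN and HBC, so intervals apart are common among genes in general. All rows of the 10 genes had the status OK. The fragments implied by the intervals summed to between 16516700 and 18123443 per library. Of the values under 0.5 FPKM in GBC and mOSN, most rested on fewer than 30 implied fragments. The HBC library held horizontal basal cell markers at a summed level of 1552 FPKM, with 12 of 12 at 1 FPKM or more and Krt14 and Krt5 highest, against 3.35 FPKM in GBC and 4.49 FPKM in mOSN. That list holds Icam1 (136 FPKM in HBC), the gene of the antigen used for the sort. The HBC library also held 15 of 15 macrophage and monocyte markers at 1 FPKM or more. Their summed level was 4202 FPKM, against 6.56 in GBC and 4.81 in mOSN. Ms4a7 was listed at 0 in GBC, and Ms4a7 and Aif1 in mOSN. Mature neuron markers were present in HBC too, at a summed level of 154 FPKM. In bulk libraries, fewer cells of a type and less RNA per cell cannot be told apart.

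**Figure D1:**
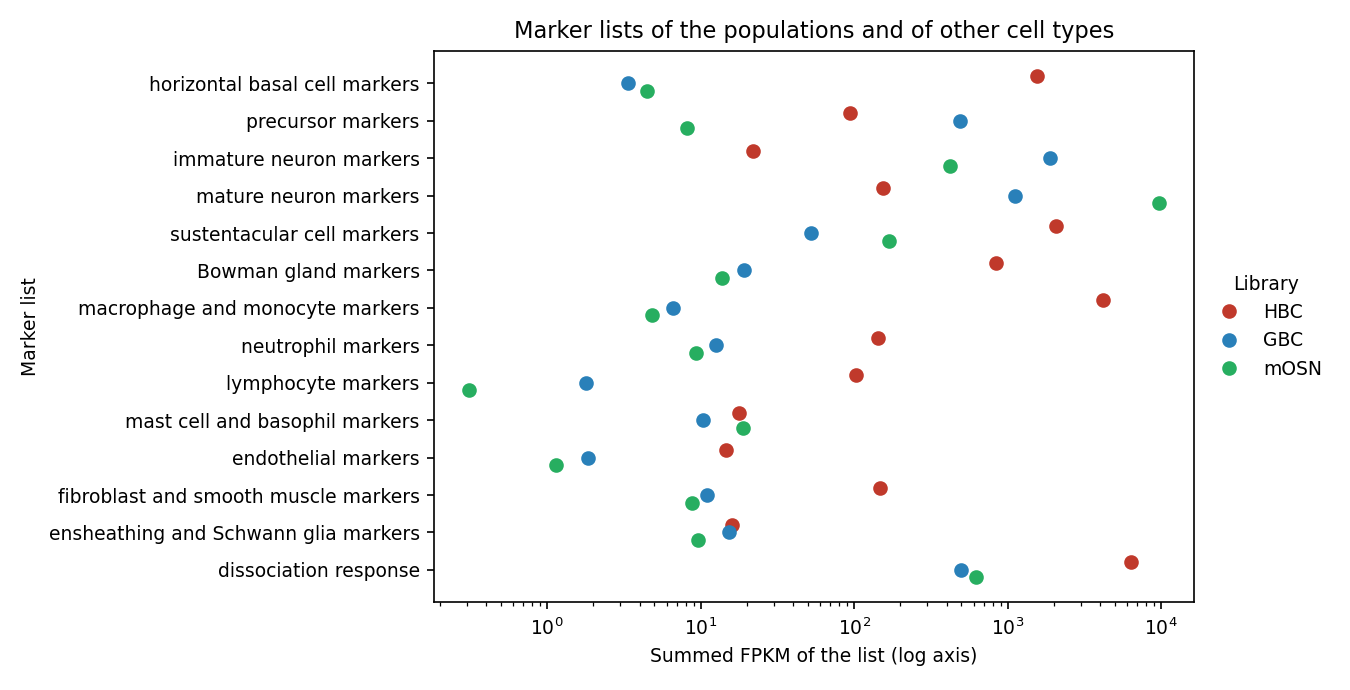
Summed FPKM (log axis) of 14 lists of marker genes in the HBC, GBC and mOSN libraries, 1 point per library and list. The HBC library was highest for horizontal basal cell markers (1552 FPKM) and also for macrophage and monocyte markers (4202 FPKM) and the dissociation response list (6348 FPKM).

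Of the receptors, Egfr, Erbb2 and Erbb3 were found mainly in the HBC library, and no receptor reached 1 FPKM in GBC or mOSN. Egfr (chromosome 11, 16652206 to 16813910, mm9) had 12.5 FPKM in HBC (interval 12.0 to 12.9), 0.0672 in GBC (0.0206 to 0.114) and 0.203 in mOSN (0.119 to 0.286). With 1 conversion from fragments to FPKM in all libraries, an alternative setting, Egfr had 19.3 FPKM in HBC, outside its deposited interval. That setting uses the implied fragments, which are approximate for Egfr. The deposited HBC level lay above that of 87.4% of all gene symbols in that library, against 24.9% for the level in GBC and 37.3% for that in mOSN. Erbb2, the partner receptor (chromosome 11, 98273798 to 98299030), had 6.77 FPKM in HBC (6.33 to 7.20), 0.202 in GBC (0.142 to 0.262) and 0.198 in mOSN (0.123 to 0.272). Its intervals in GBC and mOSN overlapped, and both lay far below the interval in HBC. Erbb3, a neuregulin receptor whose kinase is known to be weak (chromosome 10, 128006424 to 128026557), had 5.91 FPKM in HBC (5.48 to 6.34), 0.992 in GBC (0.826 to 1.16) and 0.673 in mOSN (0.518 to 0.829). It was the receptor with the most signal left in the neuronal libraries, on 144 implied fragments in GBC and 75 in mOSN.

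Erbb4, the other neuregulin receptor (chromosome 1, 68086540 to 69154633), was listed at 0 FPKM in HBC. It had 0.189 FPKM in GBC (0.115 to 0.263), on 26 implied fragments, and 0.00950 FPKM in mOSN, on 1. Erbb4 was thus the one receptor whose highest level was in GBC, and at a low level.

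The mix of receptors differed between the libraries. The 4 receptors summed to 25.1 FPKM in HBC, 1.45 FPKM in GBC and 1.08 FPKM in mOSN. Egfr made up 49.6% of that sum in HBC, 4.63% in GBC and 18.7% in mOSN. Erbb3 made up 23.5% in HBC, 68.4% in GBC and 62.2% in mOSN. Within HBC the levels ran from Egfr to Erbb2 and Erbb3, and the intervals of Erbb2 and Erbb3 overlapped. In GBC the interval of Erbb3 stood above those of the other 3 receptors, and in mOSN it did so as well.

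**Figure D2:**
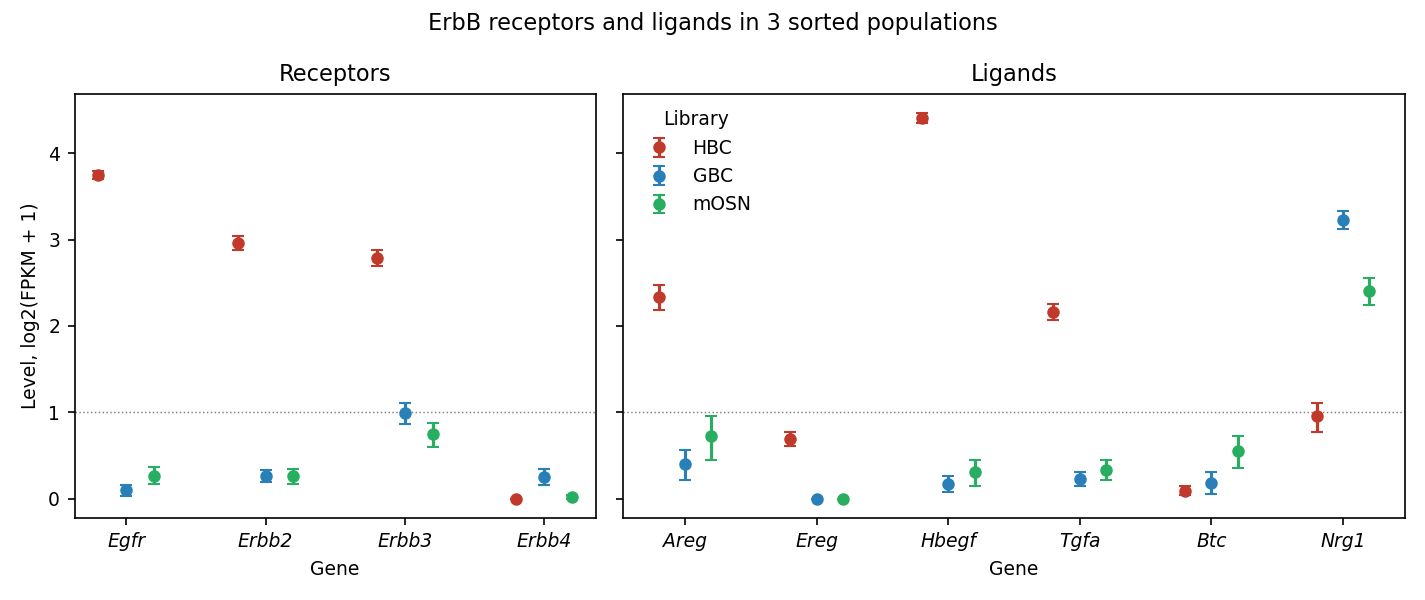
Level of each receptor and ligand as log2(FPKM + 1) in the HBC, GBC and mOSN libraries. Points are the deposited FPKM, bars the deposited interval and the dotted line 1 FPKM. Egfr (12.5 FPKM) and Hbegf (20.3 FPKM) lead in HBC, and Nrg1 leads in GBC (8.37 FPKM) and in mOSN (4.29 FPKM).

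Among the 10 genes, the ligands of the EGF receptor were highest in HBC, as Egfr was, with Btc as the exception. Hbegf (chromosome 18, 36664581 to 36675459) had the highest level of the 10 genes in HBC, at 20.3 FPKM (19.5 to 21.1). It had 0.126 FPKM in GBC (0.0532 to 0.198) and 0.233 in mOSN (0.104 to 0.362), on 12 and 13 implied fragments. Areg (chromosome 5, 91568641 to 91577458) had 4.05 FPKM in HBC (3.53 to 4.57), 0.318 in GBC (0.159 to 0.477) and 0.651 in mOSN (0.367 to 0.935). Tgfa (chromosome 6, 86145245 to 86225443) had 3.49 FPKM in HBC (3.19 to 3.79), 0.174 in GBC (0.110 to 0.239) and 0.257 in mOSN (0.156 to 0.358). Hbegf, Areg and Tgfa thus each had overlapping intervals in GBC and mOSN and a separate, higher one in HBC.

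Ereg and Btc were low throughout. Ereg (chromosome 5, 91503643 to 91522675) had 0.616 FPKM in HBC (0.519 to 0.713), on 162 implied fragments, and was listed at 0 in GBC and mOSN. Btc (chromosome 5, 91786287 to 91831939) had 0.0664 FPKM in HBC (0.0281 to 0.105), 0.136 in GBC (0.0331 to 0.238) and 0.464 in mOSN (0.275 to 0.654). It was the only member with its highest level in mOSN, where its interval stood apart from the other 2. The fragments behind 1 FPKM of Btc differed 3.49-fold between the libraries, more than for the other members with fragments in all 3. With that 1 conversion in all libraries, Btc had 0.148 FPKM in HBC, 0.0867 FPKM in GBC and 0.326 FPKM in mOSN.

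Nrg1, the neuregulin (chromosome 8, 32928500 to 33028675), was the ligand of the neuronal libraries. It had 0.934 FPKM in HBC (0.707 to 1.16), 8.37 in GBC (7.69 to 9.06) and 4.29 in mOSN (3.73 to 4.85). The 3 intervals did not overlap. Nrg1 supplied 3.17% of the summed ligand level of 29.5 FPKM in HBC, 91.7% of 9.13 FPKM in GBC and 72.8% of 5.90 FPKM in mOSN. Hbegf supplied 68.9% in HBC, 1.38% in GBC and 3.95% in mOSN. Neuregulin 1 is known to be made as several isoforms from different start sites, and the deposited gene row, which spans 100.2 kb, does not tell them apart.

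Areg, Ereg and Btc lie side by side with Epgn, the gene of epigen, another ligand of the EGF receptor, in 375 kb of chromosome 5, with no other gene row between them. Along the chromosome, Epgn was listed at 0 in every library. Ereg and then Areg followed, both highest in HBC, and Btc came last, highest in mOSN. Ereg and Areg thus shared the library of their highest level, and Btc, 209 kb from Areg, did not.

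The call used for comparisons was a difference of at least 2-fold in FPKM + 1, a log2 ratio of 1 or more in size, among genes with at least 1 FPKM in either library. Adding 1 FPKM understates the difference of low genes. Between GBC and HBC, 7 of the 10 members were measured by that filter, of which 6 were lower in GBC and 1 was higher. Over all 13736 genes measured, 23.4% were called lower and 34.6% higher in GBC. Of the 7 members, 6 passed the filter through their HBC level alone, and Nrg1 through its GBC level alone. The log2 ratios were -4.24 for Hbegf, -3.66 for Egfr, -2.69 for Erbb2, -1.94 for Areg, -1.93 for Tgfa and -1.80 for Erbb3. For Nrg1 the log2 ratio was 2.28. The median over all measured genes was 0.46, against 0.22 with 1 conversion per gene and about 0 (-0.00065) with median-of-ratios scaling. Over the 7 measured members the median was -1.94. Without the filter, the median was -1.86 over the 10 members and 0.07 over all genes. Of all genes called in this comparison, 59.7% were higher in GBC as deposited, and median-of-ratios scaling gave 45.6%.

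The comparison of mOSN with HBC used the same HBC library as the one before. Of 7 measured members, 6 were lower and 1 was higher in mOSN, where 23.0% of 14092 genes were called lower and 40.4% higher. Here too the 6 passed the filter through their HBC level alone and Nrg1 through its mOSN level alone. Hbegf had a log2 ratio of -4.11, Egfr of -3.49, Erbb2 of -2.70 and Erbb3 of -2.05. Tgfa had -1.84, Areg -1.61 and Nrg1 1.45. The median over all measured genes was 0.63. Of all genes called, 63.7% were higher in mOSN as deposited, and median-of-ratios scaling gave 50.7%.

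Between mOSN and GBC, which were made with the same kit, no member was called. Nrg1 was the only one of 10 with at least 1 FPKM in either library, while 22.4% of 12551 genes were called higher and 10.3% lower in mOSN. Its log2 ratio of -0.82 (4.29 FPKM in mOSN and 8.37 in GBC) missed the 2-fold line as deposited. It passed that line at -1.03 with 1 conversion per gene and at -1.29 with libraries rescaled to a common sum. The intervals of Nrg1, Egfr, Erbb4 and Btc, 4 of 10, stood apart between mOSN and GBC, against 53.8% of all symbols. Egfr had 0.203 FPKM in mOSN and 0.0672 in GBC, on 23.8 and 8.3 implied fragments. Of all genes called, 68.5% were higher in mOSN as deposited, 50.2% with 1 conversion per gene and 43.1% with libraries rescaled to a common sum.

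**Figure D3:**
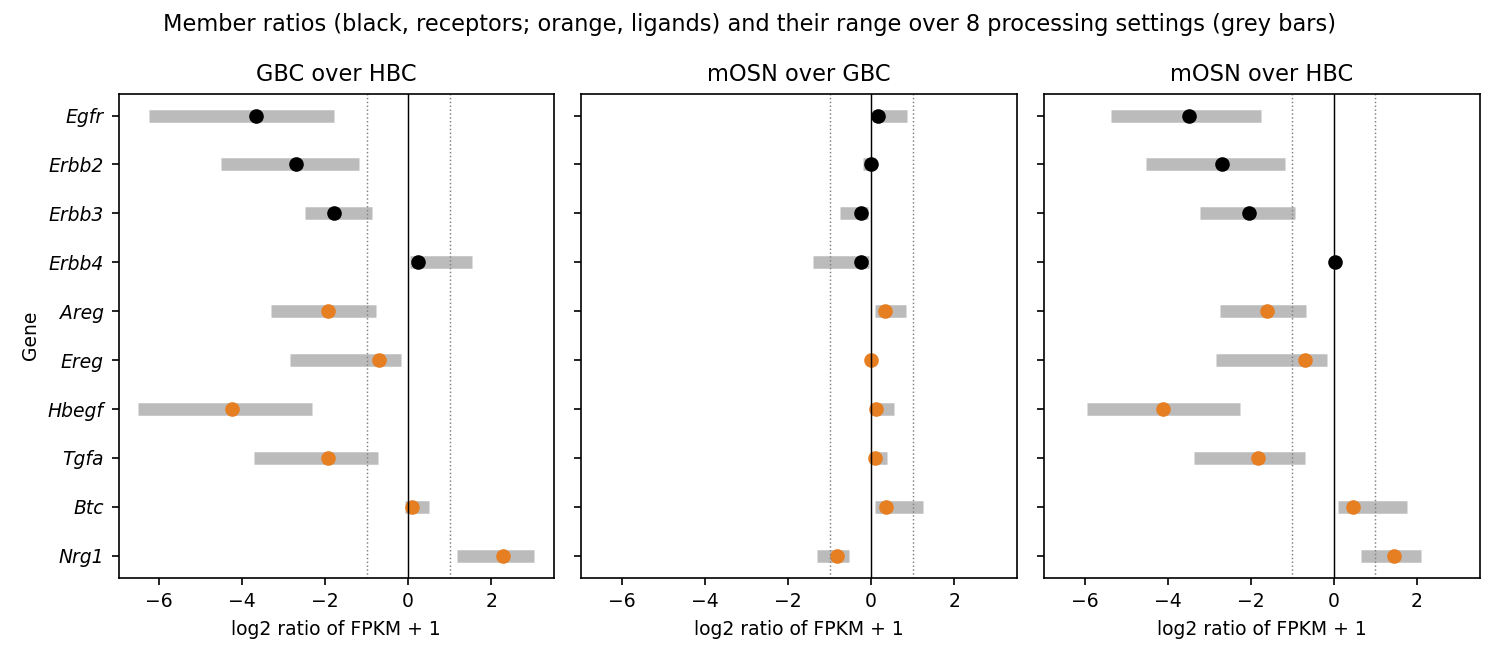
Log2 ratio of FPKM + 1 for each member in the 3 comparisons, receptors in black and ligands in orange. Grey bars span the values over 8 processing settings, and dotted lines mark the 2-fold threshold. Hbegf (-4.24) and Egfr (-3.66) are farthest to the left in GBC over HBC, and Nrg1 (2.28) lies to the right.

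The ErbB receptors were spread over the ranks of growth factor receptors in HBC. In a list of 36 other receptor tyrosine kinases joined to the 4 ErbB genes, Egfr ranked 8 of 40 in HBC, Erbb2 14 and Erbb3 15, and Erbb4 shared the last place, 36, with the others listed at 0. Csf1r, the macrophage growth factor receptor, led that library with 202 FPKM, against 0.195 in GBC and 0.137 in mOSN. Axl had 75.3 FPKM in HBC, 0.144 FPKM in GBC and 0.118 FPKM in mOSN. The fibroblast growth factor receptors Fgfr2 (30.1 FPKM in HBC, 0.0584 FPKM in GBC and 0.0589 FPKM in mOSN) and Fgfr3 (19.6, 0.160 and 0.626 FPKM in the same order) were like Egfr in being highest in HBC. Of the other kinases, 17 of 25 measured were lower and 2 higher in GBC than in HBC, with a median log2 ratio of -1.32. Of the ErbB receptors, 3 of 3 measured were lower in GBC, against 23.4% of all genes, all 3 having passed the filter through HBC. The median over those 3 was -2.69. Without the filter it was -2.24 over all 4, with Erbb4 included, while the median of the other kinases covers measured genes only. The difference from the other kinases was not tested. Csf1r is also on the macrophage list. In GBC and mOSN the insulin-like growth factor receptor Igf1r ranked first, at 20.6 and 26.3 FPKM, while Erbb3 ranked 9 and 7.

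**Figure D4:**
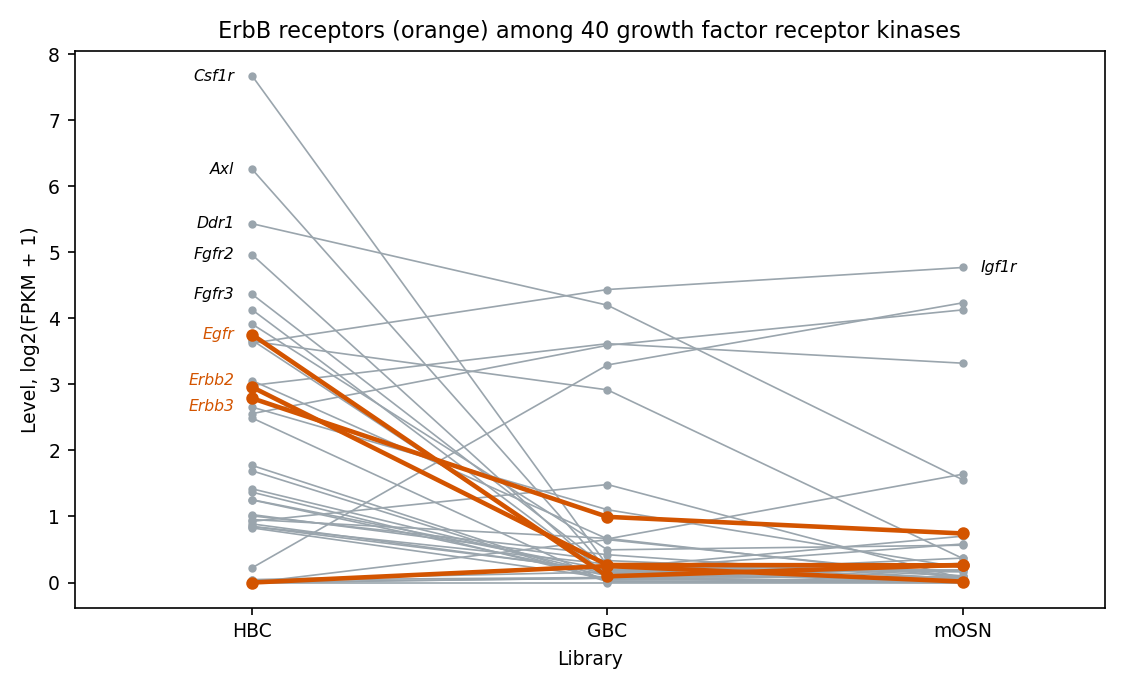
Level as log2(FPKM + 1) of 40 growth factor receptor kinases in the HBC, GBC and mOSN libraries, 1 line per gene, with the ErbB receptors in orange. Egfr ranks 8 of 40 in HBC and lies near 0 in the other libraries, where Igf1r is highest (20.6 FPKM in GBC and 26.3 in mOSN).

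By distance over log2(FPKM + 1) in the 3 libraries, the 3 genes nearest to Egfr among 18481 were Dll1 (0.05), H2-Q8 (0.09) and Mpzl2 (0.13). Those nearest to Erbb2 were Lad1 (0.04), Tnfrsf19 (0.10) and Gpx8 (0.10), and those nearest to Erbb3 were Sap25 (0.10), Tgif2 (0.12) and Ltbp1 (0.14). The likeness is over 3 libraries only, and H2-Q8 is 1 of several similar histocompatibility genes whose reads may be shared. Dll1, a Notch ligand, had 12.6 FPKM in HBC, 0.0783 FPKM in GBC and 0.167 FPKM in mOSN.

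Of the 5 ErbB ligands outside the 10, only Nrg2, another neuregulin, reached 1 FPKM anywhere. It had 5.25 FPKM in HBC, 0.0537 FPKM in GBC and 0.0492 FPKM in mOSN, so Nrg2 was highest in HBC, where Nrg1 was lowest. Egf had 0.309 FPKM in HBC, 0.286 FPKM in GBC and 0.123 FPKM in mOSN, with overlapping intervals in HBC and GBC. Genes of ligand shedding and trafficking were lower in GBC than in HBC in 7 of 15 measured and higher in 2 (median log2 ratio -0.90). Among all measured genes, 23.4% were lower and 34.6% higher. Rhbdf1 and Adam8 were among those that passed the filter through HBC alone in this comparison. Adam17, the main sheddase of EGF receptor ligands, had 3.20 FPKM in GBC and 19.5 in HBC. Rhbdf1, one of the inactive rhomboids that carry that protease, had 0.251 FPKM in GBC and 9.42 in HBC. Timp3, an inhibitor of metalloproteases, had 2.54 FPKM in GBC and 92.5 in HBC. Adam8, another ADAM protease, had 0.620 FPKM in GBC and 8.17 in HBC. Bace1, a protease known to cleave neuregulin 1, was higher in GBC than in HBC. It had 4.92 FPKM in HBC, 23.6 FPKM in GBC and 39.8 FPKM in mOSN.

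Inside the cell, most genes of the shared signalling chains were called in neither direction. Among all measured genes, 34.6% were called higher and 23.4% lower in GBC than in HBC. Of 21 measured adaptors and Ras-ERK genes, 4 were higher and 3 lower in GBC than in HBC, with a median log2 ratio of 0.08. Of 17 PI3K-Akt genes, 4 were higher and 3 lower, with a median of 0.42. Median-of-ratios scaling turned both medians, to -0.40 and -0.04, and common-sum scaling turned that of the Ras-ERK genes, to -0.02. The counts turned too with median-of-ratios scaling, to 3 higher and 4 lower Ras-ERK genes and 2 higher and 6 lower PI3K-Akt genes. Over all genes that scaling gave 24.6% higher and 29.3% lower. The adaptor Shc1, which binds activated ErbB receptors, had 2.69 FPKM in GBC and 12.7 in HBC. Gab1, a docking protein downstream of the EGF receptor, had 8.80 FPKM in HBC, 2.52 FPKM in GBC and 0.216 FPKM in mOSN. Nras had 52.5 FPKM in GBC and 10.05 in HBC, and the kinase gene Braf had 9.77 and 3.85 FPKM.

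Feedback inhibitors and genes of receptor turnover were lower in GBC than in HBC in 14 of 25 measured and higher in 5 (median log2 ratio -1.13). Among all measured genes, 23.4% were lower and 34.6% higher. Spry1 was among those that passed the filter through HBC alone in this comparison. Errfi1, an inhibitor that binds the ErbB kinase domain, had 117.8 FPKM in HBC, 4.49 FPKM in GBC and 8.09 FPKM in mOSN. Spry1, an inhibitor of Ras-ERK signalling, had 26.1 FPKM in HBC, 0.843 FPKM in GBC and 1.10 FPKM in mOSN. The ERK phosphatase gene Dusp5 had 75.7 FPKM in HBC, 1.24 FPKM in GBC and 16.6 FPKM in mOSN. Its relative Dusp4 was highest in GBC, with 9.19 FPKM in HBC, 40.9 FPKM in GBC and 1.43 FPKM in mOSN. Transcription factors and early genes that respond to ERK were lower in GBC in 12 of 15 and higher in 2 (median -3.89). Some of these, Fosl1 and Egr2 among them, passed the filter through HBC alone. Fosl1 had 0.226 FPKM in GBC and 34.7 in HBC, Fosl2 had 1.41 and 106 FPKM, Egr2 had 0.398 and 64.1 FPKM, and Ier3 had 1.19 and 133.6 FPKM.

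**Figure D5:**
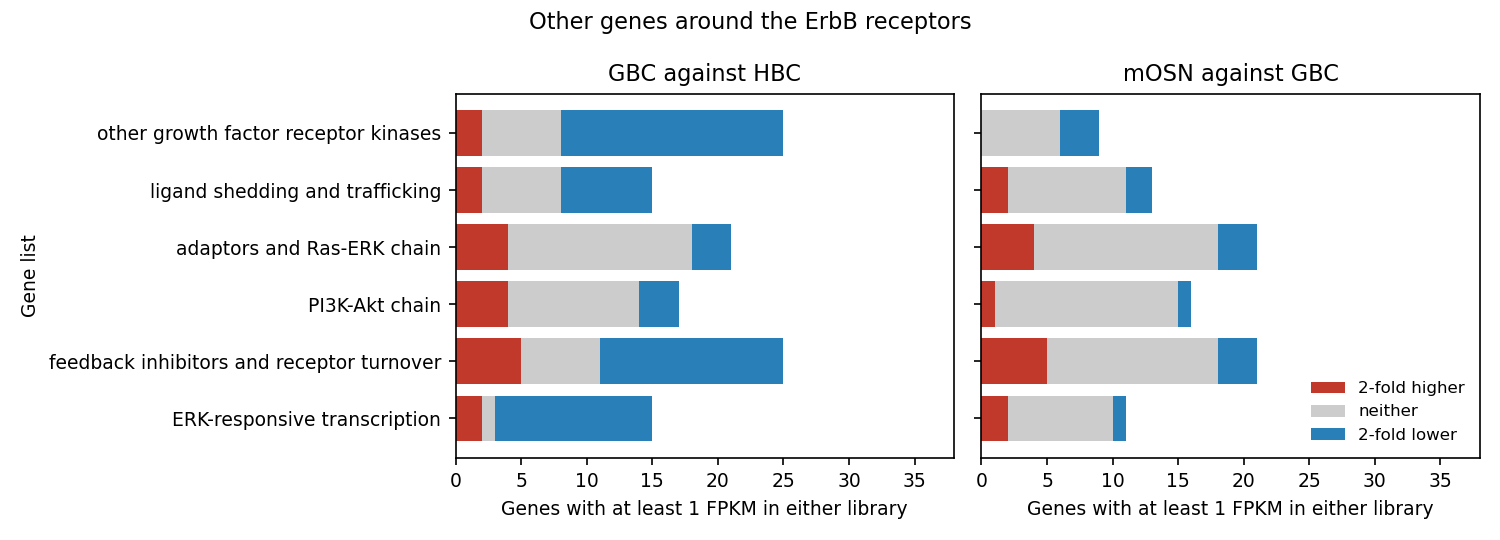
Number of genes at least 2-fold higher, at least 2-fold lower or neither, in GBC against HBC (left) and mOSN against GBC (right), for 6 lists of other genes around the ErbB receptors. Bars count genes with at least 1 FPKM in either library. ERK-responsive genes were lower in GBC in 12 of 15, adaptors and Ras-ERK genes in 3 of 21, against 23.4% of all measured genes.

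Several other lists were also higher in HBC. Among all measured genes, 23.4% were called lower and 34.6% higher in GBC than in HBC. The dissociation response list, genes known to be switched on when tissue is taken apart, was lower in GBC in 17 of 17 measured, with a summed level of 499.9 FPKM in GBC and 6348 in HBC. It holds none of the 10 members, and it shares Egr1, Fos and Ier3 with the ERK-responsive list. Fos had 38.4 FPKM in GBC and 727 in HBC. Hbegf, Areg and Ereg are known as early response genes in other tissues, and Hbegf and Areg are also made by macrophages and other leukocytes. Neutrophil markers summed to 12.5 FPKM in GBC and 143 in HBC, with 8 of 9 measured lower in GBC. Lymphocyte markers summed to 1.78 FPKM in GBC and 102 in HBC, with 10 of 10 lower. Sustentacular cell markers summed to 52.0 FPKM in GBC and 2055 in HBC (8 of 11 lower), Bowman gland markers to 19.2 and 833 FPKM (5 of 7 lower). Without Cbr2, its highest gene in HBC, the sustentacular list summed to 30.7 FPKM in GBC and 1174 in HBC. The gene 5430413K10Rik made up most of the Bowman gland sum in HBC, and the other 7 summed to 14.8 FPKM in GBC and 106 in HBC. Fibroblast and smooth muscle markers summed to 11.0 FPKM in GBC and 148 in HBC (8 of 8 lower), and endothelial markers to 1.84 and 14.6 FPKM (4 of 6 lower). Mast cell and basophil markers summed to 10.3 FPKM in GBC and 17.9 in HBC, with 1 of 2 measured lower in GBC. Hdc made up most of both sums, and the other 7 summed to 0.149 FPKM in GBC, where 4 were listed at 0, and to 8.53 FPKM in HBC. Ensheathing and Schwann glia markers, from cells known for Erbb3, summed to 15.4 FPKM in GBC and 15.9 in HBC, with 1 of 2 measured lower in GBC. Mbp made up most of both sums, and the other 7 summed to 1.72 FPKM in GBC and 6.71 FPKM in HBC. Among them Fabp7 had 0.112 FPKM in GBC and 3.48 FPKM in HBC. The part of these cells, of dissociation and of the library kit in the ErbB values of HBC was not tested.

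In the neuronal libraries, mature neuron markers summed to 9715 FPKM in mOSN and 1110 in GBC, and immature neuron markers to 421 and 1884 FPKM. Precursor markers summed to 8.18 FPKM in mOSN and 488.9 in GBC. The precursor list holds Neurog1 and the mature list holds Omp, the genes whose reporters were used for the sorts. All 9 mature markers were at 1 FPKM or more in GBC, so that library also held their RNA. The log2 ratio of Nrg1 between mOSN and GBC was -0.82, beside medians of 3.75 over the mature neuron markers and -2.24 over the immature ones.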

How the data were processed

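Polyadenylated RNA of sorted HBC, GBC and mOSN cells was sequenced, 1 library each, and samples were grouped by title. The authors deposited FPKM per gene with lower and upper bounds and a row status, as the file headers show. Bowtie, TopHat and Cufflinks (no versions) and the build mm9 are named in the submitters' processing notes. Their options and the annotation: not given in the sources used here. Rows of 1 symbol were added up (222 symbols), which touched none of the 10 members. Starts were raised by 1.

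Implied fragments were computed as the square of 2 times the FPKM over the upper half-width of its interval. This takes the interval as counting error alone, which the deposited bounds of Egfr need not be. Ratios were log2((FPKM + 1)/(FPKM + 1)), called at 2-fold and at least 1 FPKM in either library. With 1 library per group no test was run. The computation of the call was checked on simulated data, which gives no error for the calls made here. Of 280 list symbols, 279 were matched, 3 of them through RefSeq synonyms. Named were all members, up to 4 genes per pathway list with the largest ratio at 5 FPKM or more, up to 2 genes per marker list, the nearest genes of 3 receptors, and the chromosome 5 ligand cluster. Adam17, Rhbdf2, Etv4, Elk1, Igf1r and Hras1 were named after their values were seen. Some genes that the rule names are not reported here. Members and lists were chosen with earlier results of these data known. Of the alternatives, 11 were tried. Python 3.11.15, pandas 2.3.3, numpy 2.4.6 and matplotlib 3.10.9 were used.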

Additional observations from a re-analysis of the deposited data

How the results depend on the processing

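No paired analysis was possible because each population was 1 library, and no replicate could be left out for the same reason. No called member ratio changed sign under the 3 rescalings, and a pseudocount cannot change a sign. With a pseudocount of 5 FPKM, 3 members were lower in GBC than in HBC (Egfr, Erbb2 and Hbegf), 3 were lower in mOSN than in HBC and 0 were higher there, where 12.6% of all genes were lower in GBC, and 12.3% lower and 23.1% higher in mOSN. At a 4-fold difference, 3 members were lower in GBC than in HBC and 0 were higher in mOSN than in HBC, against 12.3% and 18.8% of all genes. With at least 5 FPKM required, 0 were higher in mOSN than in HBC, against 44.4% of all genes. Rescaling to a common sum, which multiplies FPKM by 4.19 to 5.89 while the added 1 and the 1 FPKM minimum stay fixed, gave 2 members higher in GBC than in HBC (Erbb4 and Nrg1), 2 higher in mOSN than in HBC (Btc and Nrg1) and 1 lower in mOSN than in GBC (Nrg1), against 37.9%, 33.1% and 22.5% of all genes. With 1 conversion per gene, 1 member was lower in mOSN than in GBC (Nrg1), against 17.4% of all genes. The other counts of called members stayed within 1.5 times. Leaving out rows with a poor status and taking the highest row per symbol could alter no member. Under the other 5 settings, 102 of 150 member ratios moved by more than the interval of the ratio, taken from the deposited bounds, and 48 by less. The cause of the change with 1 conversion per gene was not tested. Many member values in GBC and mOSN rest on few fragments, so small differences between them were not detectable at this depth.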

Other observations

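Of 17 genes of PI3K signalling downstream of the ErbB receptors, 10 were called in neither direction between GBC and HBC. In GBC 4 were higher and 3 were lower, against 34.6% and 23.4% of all measured genes. With median-of-ratios scaling 2 were higher and 6 lower, against 24.6% and 29.3%. The genes named here were chosen for their large ratios. Pik3r1, which encodes the regulatory subunit p85 alpha, had 28.0 FPKM in HBC, 1.57 FPKM in GBC and 1.56 FPKM in mOSN. Pik3r3, which encodes the regulatory subunit p55 gamma, had 2.305 FPKM in HBC, 35.5 FPKM in GBC and 14.1 FPKM in mOSN. Pik3cd, the catalytic subunit best known from leukocytes, had 23.1 FPKM in HBC, 5.03 FPKM in GBC and 2.56 FPKM in mOSN. Macrophage markers summed to 4202 FPKM in HBC and 6.56 FPKM in GBC, and the part of such cells in the level of Pik3cd was not tested.

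Nras was highest in GBC, with 10.05 FPKM in HBC, 52.5 FPKM in GBC and 8.16 FPKM in mOSN. Hras1 had 12.2 FPKM in HBC, 12.1 FPKM in GBC and 10.3 FPKM in mOSN. These are values of 1 library each.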
